A study of Mus musculus with 6 samples.

Results

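Gtse1, Psrc1, Ckap2 and Cenpt encode 4 proteins of the mitotic spindle and kinetochore whose transcripts were higher when p53 was restored in mouse lung adenocarcinoma cells, while many other genes of mitosis were lower. They were chosen from these same arrays for being higher, by their gene symbols in GEO's platform annotation. The 4 genes have 6 probe sets among the 22690 on the array and stand among 12393 genes with a named probe set. Because the difference between drug and vehicle chose them, that difference is given for these genes as values, with no test.

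The study compared 3 cell lines derived from adenocarcinomas of C57/B6-129SvJae mice, KPR4, KPR5 and KPR8, each on 1 array with ethanol vehicle and 1 array with 4-OH tamoxifen. The drug was given at 250 nM in ethanol for 24 h before RNA was taken, and per the labels it switches p53 expression back on. The vehicle cultures are the same cells without restored p53. The labels name no allele or recombinase, and no drug-treated cells that lack a restorable p53 were among the samples used here, so the effects of the drug and of p53 cannot be told apart. No label says that the cultures of a line were repeated. The replicates behind the p-values for the drug are therefore the 3 lines, each of them 1 culture per treatment. With so few arrays these p-values also lean on the spread of other genes.

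During mitosis, microtubules of the spindle attach to kinetochores, the protein assemblies built on the centromeres, and pull the chromosomes apart. Gtse1 binds growing microtubule ends, restrains the microtubule-destroying kinesin MCAK (Kif2c) and can also move p53 out of the nucleus. Psrc1, also called Dda3, is a spindle protein that recruits the related kinesin Kif2a. Ckap2 stabilises spindle microtubules, and Cenpt is a histone-fold protein of the inner kinetochore that links the centromere to the microtubule-binding Ndc80 complex. Restored p53 usually lowers mitotic genes through p21 and the DREAM repressor complex, which acts at promoters with the CHR element and CCAAT boxes. It raises other genes by binding its own element, a pair of short repeats.

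Promoter sequences are shown because the genes, chosen for being higher with the drug, belong to a class in which many others were lower. Each stretch, from RefSeq on GRCm38.p6, runs 5′ to 3′ on the gene's strand from 250 bases before an annotated transcription start and holds 30 bases from the start on. Positions count from that start, whose first transcribed base is 0. Capitals mark matches on either strand to the CCAAT box (CCAAT), to the CHR element (TTTGAA or TTCGAA) and to the p53 element. The last was taken as 2 repeats of 10 bases, each with CNNG at its centre, with a gap of up to 3 bases and up to 3 mismatches to the consensus in all. Gtse1 and Psrc1 have 2 annotated starts each, and the first listed is shown.
Gtse1, chr15:85859457-85859736, plus strand: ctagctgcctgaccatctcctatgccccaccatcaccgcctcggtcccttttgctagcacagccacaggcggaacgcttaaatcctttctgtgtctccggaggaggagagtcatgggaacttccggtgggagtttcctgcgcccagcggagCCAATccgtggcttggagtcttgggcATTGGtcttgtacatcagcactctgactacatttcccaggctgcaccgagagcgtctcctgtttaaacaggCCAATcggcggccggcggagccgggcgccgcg
Psrc1, chr3:108383554-108383833, plus strand: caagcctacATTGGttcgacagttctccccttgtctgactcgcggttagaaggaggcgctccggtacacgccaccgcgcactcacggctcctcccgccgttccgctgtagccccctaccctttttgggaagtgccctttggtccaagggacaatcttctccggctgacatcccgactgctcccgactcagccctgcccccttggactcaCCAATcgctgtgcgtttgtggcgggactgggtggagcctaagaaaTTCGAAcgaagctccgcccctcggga
Ckap2, chr8:22185790-22186069, minus strand: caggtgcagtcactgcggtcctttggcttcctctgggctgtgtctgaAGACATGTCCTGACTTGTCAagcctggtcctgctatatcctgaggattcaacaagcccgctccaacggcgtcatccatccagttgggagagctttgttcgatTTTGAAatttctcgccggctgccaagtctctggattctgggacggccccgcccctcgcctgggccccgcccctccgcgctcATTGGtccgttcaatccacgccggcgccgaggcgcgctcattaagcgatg

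The Ckap2 stretch held all 3 kinds of match, without overlap: a p53 element with 2 mismatches at -203 to -184, the CHR element TTTGAA at -101 to -96 and a CCAAT box at -20 to -16. The Psrc1 stretch held the CHR element TTCGAA at 4 to 9, and CCAAT boxes at -41 to -37 and -241 to -237. Around the first Gtse1 start there were 3 CCAAT boxes, at -99 to -95, -73 to -69 and -2 to 2, and no CHR or p53 match. The second Gtse1 start lies 239 bases downstream, and its window held a pair of overlapping p53 matches with 1 mismatch each. They are printed with the CNNG centres in capitals.
Gtse1, chr15:85859945-85859964, plus strand: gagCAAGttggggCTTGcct
Gtse1, chr15:85859955-85859975, plus strand: gggCTTGcctctgaCTTGcct

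A match is a description of letters, not a binding site. Of 32851 RefSeq promoter windows of 300 bases, 37.4% held a CCAAT box, 19.2% a CHR element and 7.53% both. A p53 element was found in 5.76% of windows with up to 3 mismatches, in 1.35% with up to 2 and in 0.219% with up to 1. With up to 3 mismatches it stood in the first window of 6 of 26 mitotic regulators, a list that was lower with the drug, and of 3 of 16 p53 targets, 1 of 14 microtubule partners, 0 of 9 inner and 0 of 8 outer kinetochore genes. For the mitotic regulators and the p53 targets the counts were 2 and 2 with up to 2 mismatches, and 0 and 2 with up to 1. These counts use first windows only. On that basis 0 of the 4 genes shown here had a match with up to 1 mismatch, since the Gtse1 matches lie in its second window. A CHR element together with a CCAAT box stood in the first window of Psrc1 and of Ckap2, and in those of 17 of 26 mitotic regulators, 2 of 9 inner kinetochore genes, 2 of 8 outer kinetochore genes, 4 of 14 microtubule partners and 2 of 16 p53 targets. Among 6261 genes tested on the arrays the share was 5.77%. The Cenpt window (chr8:105851959-105852258, minus strand) held none of the 3 motifs. The annotated Cenpt gene reaches upstream of that window, to position 105855086, so other starts were not searched.

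**Figure D1:**
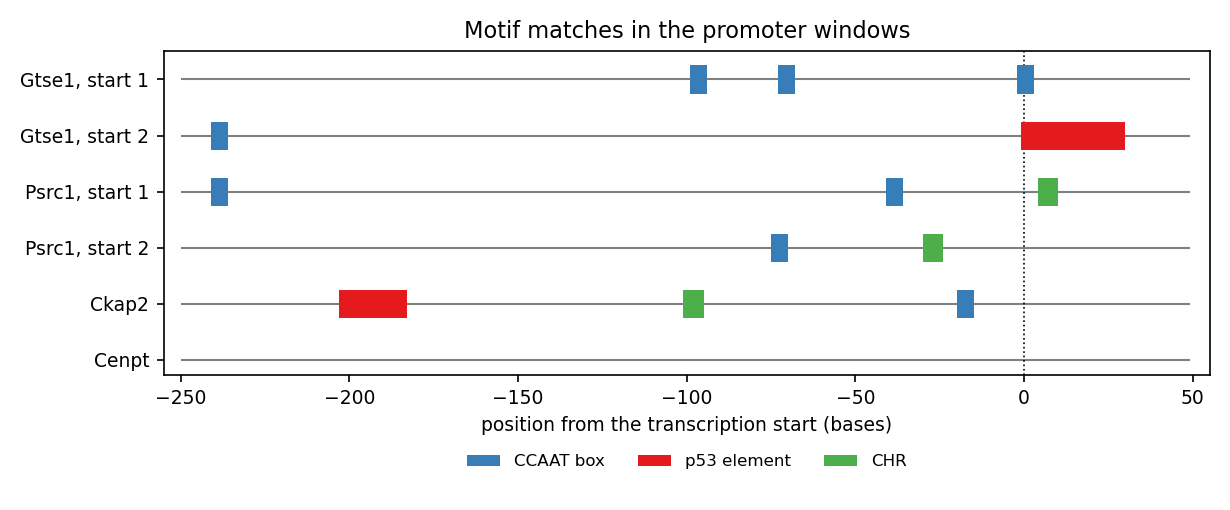
Matches to 3 motifs in the promoter windows of the 4 genes, by position in bases from each annotated start (dotted line, position 0). Blue bars are CCAAT boxes, green bars CHR elements and red bars p53 elements; the Ckap2 window has all 3, the second Gtse1 window has overlapping p53 matches at and just after its start, and the Cenpt window has none.

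The cells expressed epithelial markers on these arrays, and lung lineage markers were at or near background. All 6 epithelial markers (such as Krt8, Cdh1 and Epcam) read 8.89 or higher on every array, on the log2 scale of the deposited GCRMA values. None of 6 lung lineage markers, among them Nkx2-1 and Sftpc, exceeded 3.13, and the 27 Bacillus subtilis control probe sets, which give the background, lay between 1.13 and 2.84. At log2 4 or above on all arrays were 2 of 7 fibroblast markers, 0 of 6 leukocyte and 0 of 5 endothelial ones. Array medians lay between 4.56 and 4.63. Of 13169 probe sets at log2 4 or above on at least 3 arrays, 1055 (8.01%) were higher and 1029 (7.81%) lower with the drug, by limma with the line as a block at an adjusted p under 0.05. Without KPR4 these counts were 614 and 548, and with all lines but no term for the line they were 34 and 2. A fit without a line has fewer arrays and leans more on other genes. Its p-values and calls, here and below, are not directly comparable with those of the full fit. All 6 probe sets of the 4 genes passed that filter.

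Gtse1, the restrainer of MCAK, was higher in each line by a different amount. Its probe set, 1416969_at, read 4.52 in KPR4, 5.22 in KPR5 and 4.91 in KPR8 with ethanol, and 7.41, 7.41 and 6.29 with the drug. All drug arrays lay above all vehicle arrays, the closest pair being 1.08 apart. The difference was 2.89 in KPR4, 2.19 in KPR5 and 1.38 in KPR8, which are 7.41-fold, 4.56-fold and 2.61-fold. The mean difference was 2.15 ± 0.75 (SD over lines, n = 3), or 4.45-fold, and it ranked 33rd among the 7644 genes tested. Drug levels in KPR4 and KPR5 were nearly equal although KPR4 started lowest, and KPR8 stayed behind both. RNA came from whole cultures, so a change in how many cells express a gene and a change in RNA per cell cannot be told apart.

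Psrc1, the recruiter of Kif2a, had 3 probe sets, which differed in their response. The probe set 1417323_at stands for the gene in counts of genes, having the highest mean over all arrays. That choice rests on the drug arrays. With the drug it averaged 8.45, against 5.90 on 1451698_at, but with ethanol 5.24 against 6.0. On 1417323_at the vehicle levels were 6.33, 5.13 and 4.27 in KPR4, KPR5 and KPR8, and the drug levels 9.38, 8.36 and 7.60. No vehicle array reached a drug array, and the 3 lines kept their order. The difference was 3.05, 3.23 and 3.33, with a mean of 3.20 ± 0.14 (SD, n = 3), or 9.20-fold. It ranked 9th among the genes, and it varied least between lines of the 6 probe sets.

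The probe set 1425416_s_at also read higher with the drug in each line. Its levels went from 5.20 to 7.21 in KPR4, from 4.32 to 6.03 in KPR5 and from 4.30 to 5.13 in KPR8. The lowest drug array, of KPR8, lay just under the vehicle array of KPR4. The mean difference was 1.51 ± 0.61 (SD, n = 3), smaller than on 1417323_at by 1.04, 1.52 and 2.50 in the same order of lines.

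The third Psrc1 probe set, 1451698_at, stayed near its vehicle level. It went from 6.17 to 6.40 in KPR4, from 5.89 to 5.51 in KPR5 and from 5.93 to 5.79 in KPR8. The groups overlapped, and the difference was 0.23, -0.38 and -0.15, with a mean of -0.10 ± 0.31 (SD, n = 3). All 6 values lay above the highest background control. The platform annotation gives the same source sequence record for this probe set and 1425416_s_at, and where in the transcript each one lies was not examined here. Of 87 tested genes whose probe set of highest mean level changed by log2 1 or more and that have another tested probe set, 6 had 1 within 0.25 of 0, Psrc1 among them; this count was made after its values were seen.

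Cenpt, the inner kinetochore protein, was higher in each line by a moderate amount. Its probe set, 1426846_at, read 6.84 in KPR4, 6.48 in KPR5 and 6.19 in KPR8 with ethanol, and 7.67, 7.65 and 6.75 with the drug. The drug array of KPR8 lay 0.10 below the vehicle array of KPR4, so the groups overlapped between lines but not within one. The difference was 0.82, 1.17 and 0.56, with a mean of 0.85 ± 0.31 (SD, n = 3), or 1.81-fold. That mean ranked 237th among the genes tested.

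Ckap2, the microtubule stabiliser, had the smallest mean difference of the 4 genes, and KPR5 had most of it. Its probe set, 1434748_at, read 8.60, 8.49 and 8.25 with ethanol and 8.87, 9.49 and 8.58 with the drug. The difference was 1.0 in KPR5, against 0.28 in KPR4 and 0.33 in KPR8. The mean was 0.54 ± 0.40 (SD, n = 3), or 1.45-fold, and ranked 614th among the genes tested. Without KPR5 it was 0.31. The drug level in KPR8 was a little under the vehicle level in KPR4.

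Across the 6 probe sets, 5 were higher with the drug in each of the 3 lines, where 23.2% of all tested probe sets were. The drug arrays were all above the vehicle arrays for 2 of 6, where 6.49% of all tested probe sets showed that pattern. Both counts describe genes picked for being higher with the drug. KPR8 had the smallest difference for Gtse1, Cenpt and Psrc1 1425416_s_at, and the largest for Psrc1 1417323_at. How lines differ in response could not be tested with single arrays. RNA quality, read as the 3′ minus the 5′ probe set of Gapdh, differed between drug and vehicle by 0.24 (KPR4), 0.29 (KPR5) and -0.40 (KPR8); read from Actb, it differed by 0.16, 0.39 and -0.07. Their part in the differences between lines was not tested.

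**Figure D2:**
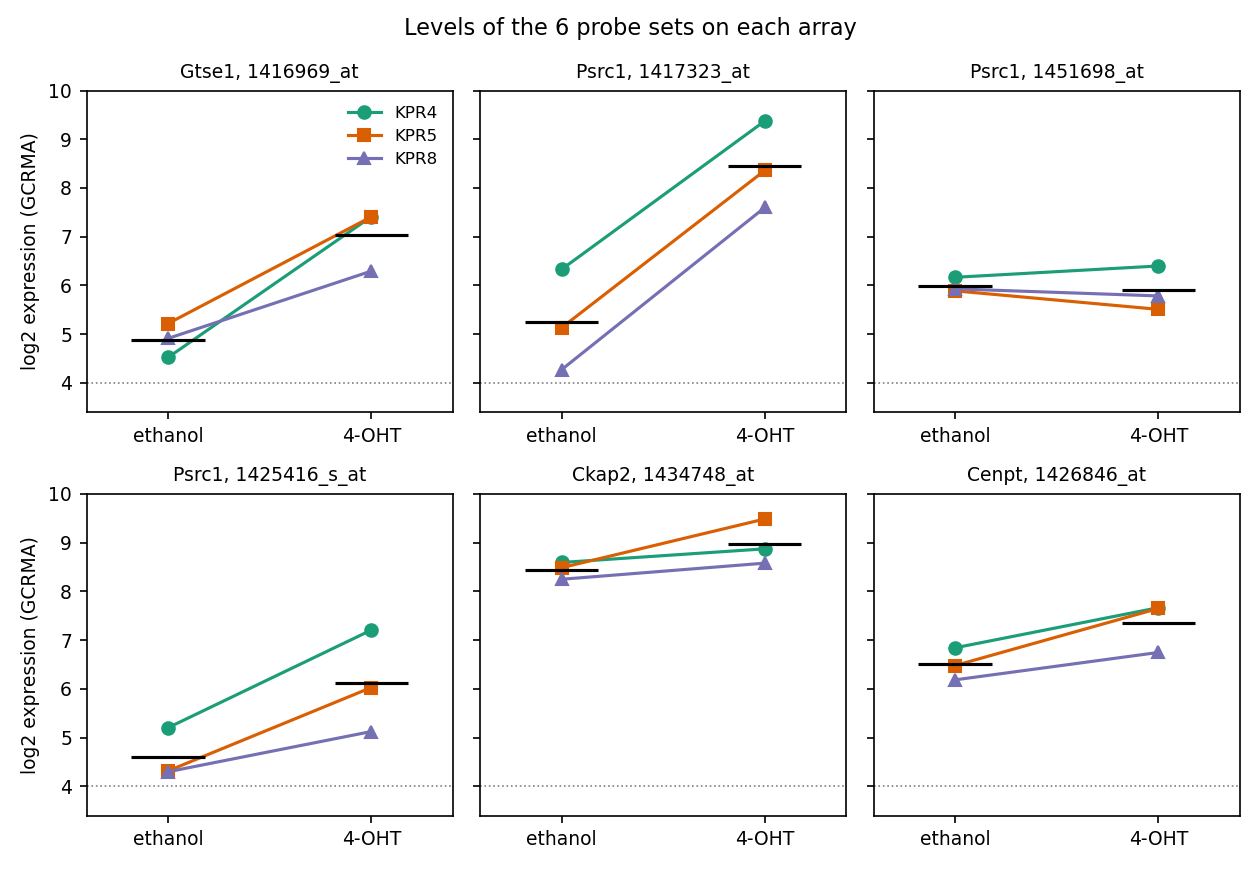
Log2 expression (GCRMA) of the 6 probe sets on each array with ethanol and with 4-OH tamoxifen (4-OHT); coloured symbols joined by lines are the 3 cell lines, black bars the mean of 3 arrays, and the dotted line the filter at log2 4. Gtse1 and Psrc1 1417323_at separate the treatments fully, and Psrc1 1451698_at stays level.

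**Figure D3:**
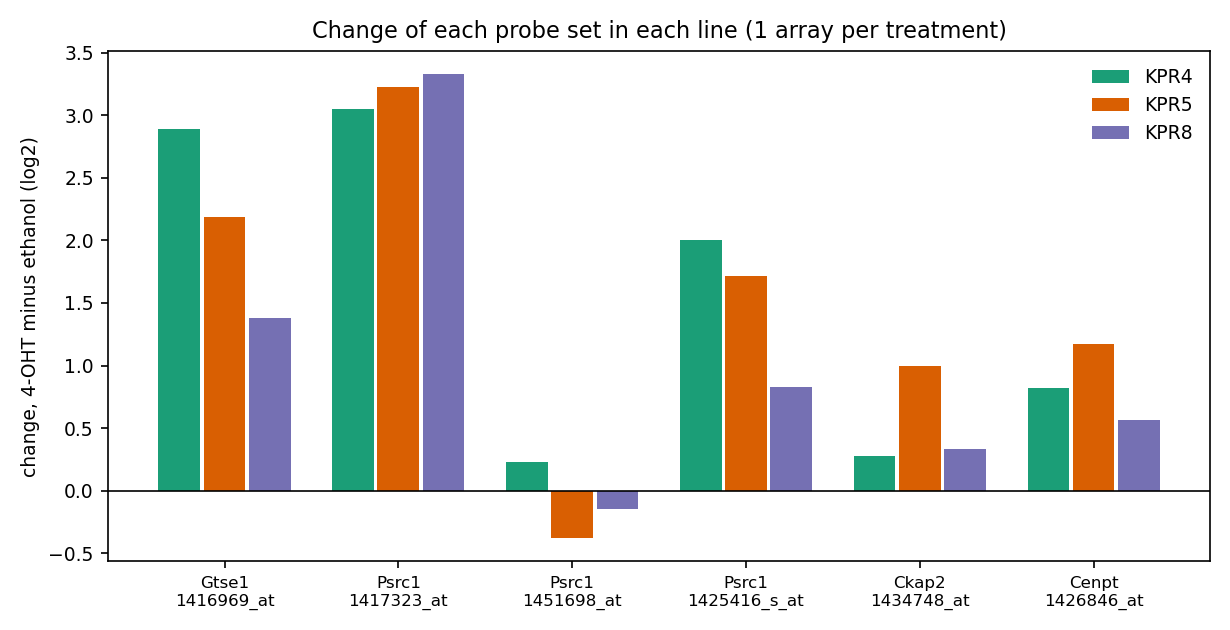
Difference in log2 expression between 4-OH tamoxifen (4-OHT) and ethanol for each probe set, with 1 bar per cell line, each from 1 array per treatment. Bars for Gtse1 run from 1.38 to 2.89, those for Psrc1 1417323_at from 3.05 to 3.33, and Ckap2 reaches 1.0 in KPR5 alone.

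Levels between lines, averaged over both treatments, did not enter the choice of the genes and were tested by limma's F-test, in which 38.8% of all tested probe sets differed. The vehicle and drug arrays of a line stand in for repeats in this test and in the pairs of lines below. No label gives a repeated culture, so these p-values do not measure whether a line's level would recur. Psrc1 differed most. Its probe set 1417323_at averaged 7.85 in KPR4, 6.75 in KPR5 and 5.94 in KPR8 (adjusted p = 5.1e-05), and each neighbouring pair in that order differed: KPR4 exceeded KPR5 by 1.11 ± 0.20 (SE, adjusted p = 0.0017), and KPR5 exceeded KPR8 by 0.81 ± 0.20 (adjusted p = 0.016). Of all probe sets, 24.4% passed in the first contrast and 18% in the second.

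On Psrc1 1425416_s_at the order of lines was the same, at 6.21, 5.17 and 4.71 (limma's F-test, adjusted p = 0.0021). KPR4 exceeded KPR5 by 1.03 ± 0.26 (SE, adjusted p = 0.011), but KPR5 and KPR8 were not distinguished (0.46 ± 0.26, adjusted p = 0.23), and without KPR4 the test of lines no longer passed (adjusted p = 0.19). Cenpt averaged 7.26, 7.07 and 6.47 (adjusted p = 0.024). KPR4 exceeded KPR8 by 0.79 ± 0.21 (SE, adjusted p = 0.016), a contrast passed by 27.5% of probe sets, while KPR4 against KPR5 (0.19 ± 0.21, adjusted p = 0.56) and KPR5 against KPR8 (0.60 ± 0.21, adjusted p = 0.069) did not pass. The Cenpt call ended without KPR4 (adjusted p = 0.095) and without KPR8 (adjusted p = 0.48).

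For the other probe sets the lines were not distinguished by limma's F-test. Gtse1 averaged 5.97, 6.31 and 5.60 in KPR4, KPR5 and KPR8 (adjusted p = 0.15). Its adjusted p was 0.047 in the fit without KPR4, which is not directly comparable. Ckap2 averaged 8.74, 8.99 and 8.42 (adjusted p = 0.094). The flat Psrc1 probe set averaged 6.28, 5.70 and 5.86 (adjusted p = 0.095).

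Many genes that work with these proteins were lower with the drug. Of 9 tested genes of the inner kinetochore, the assembly to which Cenpt belongs, 7 were lower and 0 higher, with a median change of -0.85. Gtse1, Psrc1, Ckap2 and Cenpt are counted in none of the lists, so the 0 higher leaves out Cenpt itself. Over all 7644 genes tested, each by its probe set of highest mean level, 8.03% were lower and 9.48% higher, with a median of 0.00. Cenpa, the histone that marks centromeres, fell by 0.85 on the log2 scale (SE 0.15, limma adjusted p = 0.0024), where Cenpt was 0.85 higher. Cenph and Cenpk, of a complex next to Cenpt in the kinetochore, changed by -1.15 ± 0.16 and -1.0 ± 0.16 (SE), Cenpn, which reads the Cenpa nucleosome, by -1.21 ± 0.17 and Cenpq by -0.92 ± 0.16. Cenpx, a histone-fold partner of Cenpt, changed by -0.69 ± 0.17, a call that ended without KPR5 (adjusted p = 0.065). For the partners Cenpw and Cenps the annotation used here names no probe set. Cenpc1, which like Cenpt bridges the inner and outer kinetochore, was at 0.13 ± 0.16 and did not pass (adjusted p = 0.65); it was named after its values were seen.

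Of 9 tested outer kinetochore genes, onto which Cenpt holds, 7 were lower and 0 higher, with a median of -0.77. Ndc80, the subunit whose complex Cenpt recruits, changed by -0.83 ± 0.20 (SE, limma adjusted p = 0.012), and its partner Nuf2 by -1.06 ± 0.17. Ska1, of the complex that follows shrinking microtubules, changed by -1.26 ± 0.17 and Pmf1, of the Mis12 complex, by -0.98 ± 0.18. Without KPR4 there were 3 lower genes and without KPR5 there were 4, and Ndc80 lost its call without KPR4 (-0.54, adjusted p = 0.16).

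Among 18 tested microtubule partners and neighbours of Gtse1, Psrc1 and Ckap2, 10 were lower and 1 was higher, with a median of -0.60. Kif2c, the kinesin MCAK that Gtse1 restrains, changed by -1.10 ± 0.17 (SE, limma adjusted p = 0.00085) while Gtse1 itself was higher. Tacc3 and Ckap5, which form a spindle complex with clathrin, a binding partner of Gtse1, changed by -1.11 ± 0.15 and -0.73 ± 0.16, the latter not past the threshold without KPR4 (-0.67, adjusted p = 0.070). The mitotic kinases Plk1 and Aurka changed by -1.37 ± 0.18 and -1.22 ± 0.16.

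The 1 partner called higher was Mapre3, which encodes the microtubule end-binding protein EB3. It read 4.02 on average with ethanol and 4.97 with the drug, a change of 0.95 ± 0.17 (SE, limma adjusted p = 0.0022), and was higher by 0.67, 1.37 and 0.80 in KPR4, KPR5 and KPR8. Its relative Mapre1, encoding EB1, was at -0.05 ± 0.12 (adjusted p = 0.82), and Kif2a, the kinesin that Psrc1 recruits, at -0.11 ± 0.16 (adjusted p = 0.69). Another relative, Mapre2, was at 0.28 ± 0.21 (adjusted p = 0.42), with 0.94, 0.36 and -0.47 in KPR4, KPR5 and KPR8. Its other probe sets ran from 0.14 to 0.85, and it was named after its values were seen. Mapre3 starts near the filter level and drops out under a filter at log2 6. Without KPR8, 2 of the partners were higher.

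Mitotic regulators fell nearly throughout: 29 of 33 tested genes were lower and 0 higher, with a median of -1.04. Bub1b, a spindle checkpoint kinase, changed by -1.49 ± 0.16 (SE), the kinesin Kif20a by -1.45 ± 0.16 and Cdk1, the kinase that starts mitosis, by -1.33 ± 0.14. Mybl2, a transcription factor of mitotic genes, changed by -1.32 ± 0.22 (limma adjusted p = 0.0017). The medians of this list in KPR4, KPR5 and KPR8 were -1.22, -0.84 and -0.91, beside 2.89, 2.19 and 1.38 for Gtse1 and 0.28, 1.0 and 0.33 for Ckap2.

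In sign, Gtse1, Psrc1, Ckap2 and Cenpt, apart from Psrc1 1451698_at, moved with the p53 targets. The 4 genes were chosen for being higher with the drug, so this shared sign was set by the choice. Of 24 tested p53 targets 19 were higher and 0 lower, with a median of 1.66. A gene can pass the filter through its drug arrays alone, and without the filter 21 of 28 were higher and 0 lower. Psrc1 1417323_at and Gtse1 lay above that median, and Cenpt and Ckap2 below it. Cdkn1a, which encodes p21, rose by 4.63 ± 0.28 (SE, limma adjusted p = 3.8e-07) and Mdm2, the ubiquitin ligase for p53, by 2.94 ± 0.12. Ak1 (5.74 ± 0.17), Trp53inp1 (4.09 ± 0.25) and Ephx1 (4.04 ± 0.33) made up, with Cdkn1a, the largest rises of the list, beside 3.20 for Psrc1. With ethanol Ak1 read 3.95, 2.97 and 4.29 in KPR4, KPR5 and KPR8, near or below the filter level. Ephx1 read 7.66, 3.43 and 3.36, and rose by 2.55, 4.90 and 4.67 in the same order. Cdkn1a and Trp53inp1 started higher, at 6.46 and 7.44 on average. Further probe sets gave 3.17 for Cdkn1a, 2.27 for Trp53inp1 and 4.18 for Mdm2. The lists were written with earlier results of these data known, so their direction is not independent evidence.

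**Figure D4:**
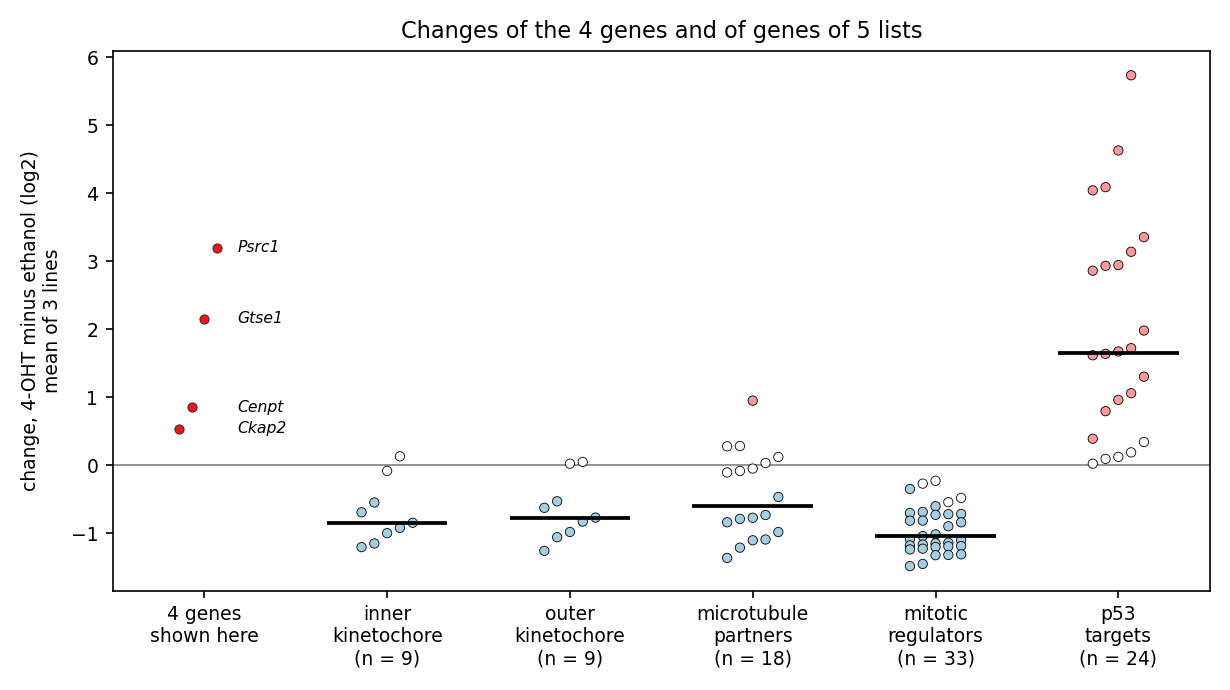
Mean log2 difference over 3 lines between 4-OH tamoxifen (4-OHT) and ethanol for Gtse1, Psrc1, Ckap2 and Cenpt (red, the probe set with the highest mean) and for the tested genes of 5 lists; pink points were called higher, blue points lower and white points neither by limma, and black bars are list medians. The 4 genes were chosen for being higher with the drug and lie above 0. List medians are -0.85, -0.77, -0.60 and -1.04 for the kinetochore, microtubule and mitotic lists and 1.66 for the p53 targets.

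The genes whose levels ran most alike over the 6 arrays were sought among 2900 others that varied by at least log2 1. For Gtse1 they were Dffb, Pltp and Nrp1, each with a Pearson's r of 0.993. Pltp, a phospholipid transfer protein gene, rose by 2.60 (KPR4), 1.92 (KPR5) and 1.10 (KPR8), the same order of lines as Gtse1. For Psrc1 they were Mcee and Cacfd1 (both r = 0.994) and Abhd4 (r = 0.991); Abhd4 rose by 2.76, 3.50 and 3.03. For Cenpt they were Grb14 (r = 0.994), Ripor1 (r = 0.993) and Ecm1 (r = 0.992). For Ckap2 they were Gne (r = 0.984), Prrc1 (r = 0.968) and Hes6 (r = 0.964), and Hes6 differed by 1.69 in KPR5, against 1.02 and 0.88 in KPR4 and KPR8. With 6 arrays that share 3 lines and 2 treatments, such values of r are a description only.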

How the data were processed

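Log2 values per probe set were deposited, made by the authors with GCRMA (2.20.0) under R (2.11.0) according to the submitters' processing notes; RNA (100 ng) was amplified with a NuGEN kit and biotin-labelled, per the labels' protocols. Detection calls and scanner files were not used here. Genes were named from probe sets with 1 symbol in GEO's platform annotation. Probe sets that reached log2 4 on 3 or more of the 6 arrays were tested in limma 3.58.1 (R 4.3.3) with terms for line and treatment and a variance trend; 2-sided p-values were adjusted by Benjamini-Hochberg over 13169 probe sets. There are 2 residual degrees of freedom and a prior of 10.9, so p-values lean on other genes. Fewer residual degrees of freedom remain with a line left out, and p-values then lean on other genes more. A list counts each gene by its brightest probe set over all arrays, drug arrays included. Pairing follows the line: deviations of its 2 arrays correlated at 0.862, 0.694 and 0.718. The fit was tested on simulated data. The number of arrays limits precision.

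The members and lists were chosen with earlier results of these data known. Named from each list were the 4 genes with the largest absolute change past the threshold, any called against the list's majority, and fixed partners. The genes most alike are the 3 of highest Pearson's r per member. Pairwise line contrasts were added after seeing the data. Alternatives were the filter, the line term, the variance trend, centring, a background floor, the choice of probe set and leaving out each line. Motifs were searched in RefSeq promoter windows (GRCm38.p6), which hold all 4 genes.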

Additional observations from a re-analysis of the deposited data

Results flagged for a closer look

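The Psrc1 probe set 1451698_at moved in opposite directions between lines, with changes of 0.23, -0.38 and -0.15 for KPR4, KPR5 and KPR8. In the same order, the values were -0.12, -0.44 and 0.24 for Kif2a, and 0.12, -0.16 and -0.12 for Mapre1. With 1 array per line and treatment these differences between lines were not tested, and no group was large enough to look for outlying samples.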

How the results depend on the processing

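The rises of Gtse1, Ckap2, Cenpt and the other Psrc1 probe sets kept their sign in every alternative that gave a value, but this is no check of them. The filter, the line term, the variance trend and the choice of probe set leave a probe set's mean change as it is. Leaving out 1 line cannot turn a difference that is above 0 in each of the 3 lines. The stricter filter and the fit with 1 probe set per gene hold neither Psrc1 1451698_at nor 1425416_s_at. For Psrc1 1451698_at the mean change ran from -0.26 to 0.044 with 1 line left out, and was 0.044 without KPR5. With no replicate block (no line term), limma called 34 probe sets higher and 2 lower; lower calls were 0 for the inner kinetochore, outer kinetochore and microtubule lists and 1 for mitotic regulators, and higher calls were 0 for microtubule partners and 7 for p53 targets. With 1 line left out, higher calls ran from 614 to 965 and lower calls from 548 to 886, lower outer kinetochore genes from 3 to 6, and higher microtubule partners from 1 to 2. The adjusted p of the line differences then ran from 0.047 to 0.26 for Gtse1, from 5.3e-07 to 0.19 for Psrc1 1425416_s_at and from 0.0039 to 0.48 for Cenpt. Fitting 1 probe set per gene tested fewer features and called 683 lower. Under the stricter filter 0 microtubule partners were higher and their median was -0.73; averaging all probe sets per gene gave -0.41. With 1 line left out Kif2a ran from -0.28 to 0.059 and Mapre1 from -0.14 to 0.0019, both turning sign without KPR5 and with no call. Of the 25 named genes with a call, 3 lost it with a line left out, as given in the report, and 21 without the line term. The cause of these shifts was not tested. Dim probe sets such as Mapre3 are limited by signal over background.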

Other observations

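Among the genes measured beside Cenpt, some outer kinetochore genes did not pass the test, although 7 of the 9 tested were lower. Zwint, an outer kinetochore adaptor, was at 0.05 ± 0.12 (SE, limma adjusted p = 0.84) and Spc25, a subunit of the same complex as Ndc80, at 0.02 ± 0.15 (adjusted p = 0.94). The clathrin heavy chain gene Cltc, whose protein carries Gtse1 on the spindle, was at 0.12 ± 0.10 (adjusted p = 0.45). These 3 genes were named after their values were seen.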
